A study of Mus musculus with 78 samples.

Results

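The cytosolic chaperonin CCT, also called TRiC, is encoded in the mouse by the 8 genes Tcp1, Cct2, Cct3, Cct4, Cct5, Cct6a, Cct7 and Cct8. These 8 genes were taken by name from the 55401 genes of the count tables, since they had been reported earlier as targets of the human ortholog of ZFP143, and ZFP143 peaks were then looked up at their promoters. Of the 8 genes, 4 had such a peak (Tcp1, Cct3, Cct7 and Cct8) and 4 had none (Cct2, Cct4, Cct5 and Cct6a). Every library used here came from E14TG2a mouse embryonic stem cells (ESCs) of the genotype ZFP143-FKBP, in which an FKBP degron followed by an HA tag and, after a self-cleaving peptide, GFP had been knocked in at Zfp143. Homozygous lines had been grown from sorted single cells, and which of them gave each library is not given in the sources used here. The control libraries carried the degron too, so that no group here represented cells with untagged ZFP143. ZFP143 was degraded with 500 nM dTAG-V1, and controls received the solvent DMSO. TT-seq, which labels RNA made during a short pulse of 4-thiouridine, was performed in DMSO and at 2, 6 and 24 h in dTAG. The control columns of the TT-seq count table are headed as time zero and were taken as the DMSO libraries, the only TT-seq libraries whose labels give no time in dTAG. RNA-seq of polyadenylated RNA was performed in DMSO and after 24, 48 and 72 h. In a separate RNA-seq experiment, cells kept for 24 h in DMSO or dTAG were harvested, or were moved to differentiation medium with retinoic acid (RA) for a further 24 h with DMSO or dTAG maintained. Each of the 12 groups had 2 libraries. No group received the differentiation medium without RA, so that the effects of RA and of the medium cannot be told apart, and the depleted libraries with RA had been in dTAG for 48 h.

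CCT is a double-ring, ATP-driven folding machine of the cytosol, and each of its rings holds 1 copy of each of its 8 related subunits. Actin and tubulin are its best known substrates, and many proteins with WD repeats, among them activators of the cell cycle ubiquitin ligase APC/C, also fold in it. Prefoldin hands unfolded chains to it, and phosducin-like proteins act as its cofactors. Tcp1 encodes the alpha subunit, Cct2 beta, Cct3 gamma, Cct4 delta, Cct5 epsilon, Cct6a zeta, Cct7 eta and Cct8 theta. ZFP143 is a zinc finger transcription factor that binds close to the starts of genes.

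ZFP143 had been mapped by ChIP-seq with an antibody to the HA tag, in a single list of 3189 peaks called against input, with no replicates. A gene was counted as having a peak when a peak with its centre within 2000 bp of one of its transcript starts overlapped the promoter window, which ran from 2000 bp before that start to 1000 bp past it. Positions are in mm10, in which the annotation held 2495 genes with a peak by this rule. The peak of Tcp1 (chr17:12916006-12916834) had a fold enrichment over input of 73.7 and ranked 308 of the 3189 peaks, and its summit lay 4 bp downstream of a start of the gene (chr17:12915701-12925067, plus strand). The peak of Cct8 (chr16:87495613-87496090) had a fold enrichment of 53.8 and ranked 583, with its summit 7 bp downstream of the start of the gene (chr16:87483326-87495873, minus strand). The peak of Cct3 (chr3:88296331-88296957) had a fold enrichment of 44.0 and ranked 804. Its summit did not lie at the start of Cct3 (chr3:88297116-88321767, plus strand) but at -509 bp, upstream of it, and 231 bp from the start of the divergent gene Tsacc. The peak of Cct7 (chr6:85451871-85452311) had a fold enrichment of 26.1 and ranked 1396, with its summit 2 bp downstream of a start of the gene (chr6:85451514-85468475, plus strand). The median fold enrichment over all peaks was 20.8, so that all 4 peaks were above the middle of the list.

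The 4 other genes were far from any ZFP143 peak. The nearest peak centre lay 19731 bp from a start of Cct6a (chr5:129786998-129846371, plus strand), 191525 bp from Cct4 (chr11:22990519-23003780, plus strand), 212058 bp from Cct2 (chr10:117051001-117063814, minus strand) and 2841619 bp from Cct5 (chr15:31590800-31601804, minus strand). The architectural protein CTCF, mapped in the same cells in a list of 22314 peaks, had a peak beside the Cct7 peak (chr6:85451468-85451815), which did not overlap it. No other CCT promoter had a CTCF peak centre within 2000 bp, the nearest being 4491 bp away.

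**Figure D1:**
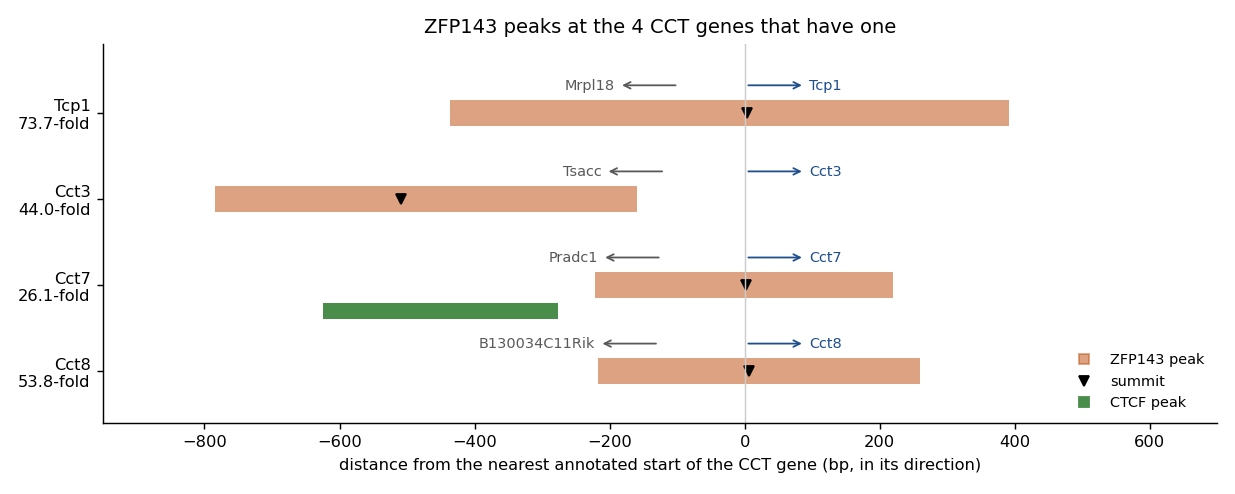
ZFP143 peaks at the starts of the 4 CCT genes that have one. The x axis is the distance in bp from the transcript start nearest to the summit, in the direction of the gene, and marks show the peaks, their summits, the CTCF peak beside Cct7 and the outermost annotated start of each neighbouring gene, which for Tsacc lies beyond the starts inside the peak; the summits of Tcp1, Cct7 and Cct8 sit at a start, and that of Cct3 sits at -509 bp.

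The sequence at each summit is shown because a short motif was found at all 4. The letters CCCANNA, which the longer CCCANNATG contains, were chosen after the sequences under the peaks had been seen. Both strands were searched over the whole of each CCT peak. For the shares over all summits given below, they were searched within 75 bp of the summit. The nearest match at each summit is printed below 5′ to 3′ on its own strand from the GRCm38 (mm10) reference, with the match in capitals. At Tcp1 a further match of the longer form lay elsewhere in the peak, 178 bp from the summit. Its printed stretch overlapped exon sequence of Tcp1 annotated as coding and as untranslated.
Tcp1 (chr17:12916428-12916457, plus strand): gcgtgttaCCCAGCAggccccgcggcatcg
Tcp1, further match (chr17:12916613-12916642, plus strand): ggtccgctCCCAGAATGgtaagggcgagag
Cct3 (chr3:88296589-88296618, plus strand): ccacaactCCCAGCATGctccggggaggcg
Cct7 (chr6:85452037-85452066, minus strand): cacccaagCCCACAATGctccgcgccggag
Cct8 (chr16:87495846-87495875, minus strand): ggcccattCCCAGCAggcagtgcgcggcgc

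The motif centre lay 7 bp from the summit at Tcp1 and Cct3, 2 bp at Cct8 and 39 bp at Cct7. The printed stretches with the nearest matches at Tcp1, Cct7 and Cct8 overlapped untranslated exon sequence of those genes. Whether the matches themselves lay in exons was not looked up. The stretch at Cct3 fell outside all exons, in an intron of Tsacc. CCCANNA was present in 72.2% of the 151-base windows at all ZFP143 summits and in 54.9% of the 300-base RefSeq promoters (GRCm38) of 32851 gene starts. CCCANNATG was present in 23.2% of the summit windows and 5.01% of the promoters. The letters ACTACA, searched in the same way, were present in 36.3% of the summit windows and 10.3% of the promoters, and in none of the 4 CCT peaks. In the RefSeq promoters of the CCT genes, CCCANNA was present at Cct8 and at Cct5 and Cct6a, which have no peak, and was absent at Cct2. Cct4 has no entry there and was not searched. The motif was also absent from those of Tcp1, Cct3 and Cct7, whose windows do not cover the matches printed above. These matches describe letters only.

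The libraries held 9721568 to 16532077 counts in TT-seq, 10261851 to 15316700 in the RNA-seq time course and 13890761 to 27089033 in the RA experiment. Every CCT gene had at least 562 counts in every library of TT-seq and at least 4378 in RNA-seq over time, where counting alone gives a relative error of up to 4.22% and 1.51%. Some RNA-seq libraries of a group differed by less than this. Values below are counts scaled to the library total and given as CPM, corrected by TMM factors, and fold changes are log2 changes from edgeR ± SE. A TT-seq gene was called at an adjusted p under 0.05 in the quasi-likelihood test and a log2 size above 0.5, and an RNA-seq gene at an adjusted p under 0.01 in the edgeR test against a fold change of 1.5 (glmTreat). All 8 CCT genes passed the filter on low counts in all 3 tables. The transcript of Zfp143 itself rose in dTAG, from 71.0 and 74.2 CPM in TT-seq DMSO to 162 and 164 CPM at 2 h (log2 change 1.17 ± 0.11, adjusted p = 0.00104, edgeR). A degron acts on the protein, so that this transcript does not check its loss. The 6 ESC markers (Pou5f1, Nanog, Sox2, Klf4, Zfp42 and Esrrb) were all present in every library. Their summed level was 4118 and 4192 CPM in RNA-seq DMSO and 2741 and 2764 CPM at 72 h. The lowest of them, Klf4, did not fall with the sum, with means of 189.6 CPM in DMSO and 206.9 CPM at 72 h. The 3 primitive endoderm markers (Gata6, Gata4 and Sox17) summed to 5.59 and 5.98 CPM in RNA-seq DMSO, 13.3 and 14.0 CPM at 48 h and at most 16.8 CPM in either time course. In RNA-seq, 3 neural markers (Pax6, Sox1 and Tubb3) went from 119 and 124 CPM in DMSO to 57.9 and 58.0 CPM at 24 h and 83.4 and 76.3 CPM at 72 h. Most of this sum was Tubb3, at 117 and 121 CPM in DMSO and 51.8 and 51.9 CPM at 24 h. The rest of the sum, Pax6 and Sox1 together, was higher at 24 h than in DMSO. The fall at 24 h is therefore that of Tubb3, a tubulin gene counted again below, and not of the whole list. In the same RNA-seq time course 3 fibroblast-like markers (Col1a1, Thy1 and Vim) summed to 349 and 357 CPM in DMSO, 193 and 190 CPM (48 h) and 301 and 304 CPM (72 h). The lowest of them, Col1a1, went the other way, from a mean of 0.198 CPM in DMSO to 1.85 CPM at 48 h. The part of these shifts in the CCT changes was not tested, and in bulk RNA fewer cells of a type and less RNA per cell cannot be told apart.

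The first question was whether synthesis of CCT transcripts changed early after ZFP143 was degraded. By 2 h of dTAG, new transcription of Tcp1 fell to 50.9% of control, while Cct2, Cct3 and Cct4 had log2 changes between -0.06 and -0.02. Tcp1 was at 119.6 and 136 CPM in DMSO, 58.1 and 71.7 CPM at 2 h, 64.8 and 63.4 CPM at 6 h, and 55.1 and 63.8 CPM at 24 h. All 6 dTAG libraries were below both controls. The log2 change was -0.97 ± 0.15 at 2 h (adjusted p = 0.0092, edgeR), -0.99 ± 0.15 at 6 h (adjusted p = 0.00792) and -1.10 ± 0.15 at 24 h (adjusted p = 0.00405). Its call at 2 h was lost without DMSO replicate 2 (log2 change -0.86, adjusted p = 0.0668) or without 2 h replicate 1 (-0.83, adjusted p = 0.107). At 6 h it was lost without DMSO replicate 2 (-0.89, adjusted p = 0.0502), 6 h replicate 1 (-1.01, adjusted p = 0.0998) or 6 h replicate 2 (-0.98, adjusted p = 0.101). At 24 h it held with any library left out.

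Cct7, the eta subunit, was the only other CCT gene called lower in new transcription. It was at 206 and 225 CPM in DMSO, 143 and 158 CPM at 2 h, 133 and 138 CPM at 6 h, and 142 and 135 CPM at 24 h, again with no overlap between dTAG and control libraries. Its log2 change was -0.51 ± 0.11 at 2 h (adjusted p = 0.0582, edgeR), not called, -0.67 ± 0.11 at 6 h (adjusted p = 0.017) and -0.63 ± 0.11 at 24 h (adjusted p = 0.0159). The same-numbered TT-seq libraries deviated together, and with the replicate number as a block Cct7 was also called at 2 h (log2 change -0.52, adjusted p = 0.0164). The calls of Cct7 were lost when single libraries were left out. At 6 h the adjusted p was 0.0669 without DMSO replicate 2 (log2 change -0.59), 0.199 without 6 h replicate 1 (-0.64) and 0.151 without 6 h replicate 2 (-0.69). At 24 h it was 0.0571 without DMSO replicate 2 (-0.56), 0.0655 without 24 h replicate 1 (-0.67) and 0.0965 without 24 h replicate 2 (-0.59).

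Cct8, the theta subunit, was at 111 and 142 CPM in DMSO and at 82.4 and 99.8 CPM at 2 h, with no overlap, and its log2 changes of -0.48 ± 0.16, -0.39 ± 0.16 and -0.43 ± 0.16 at 2, 6 and 24 h were not called. At 2 h the order of Cct7 and Cct8 changed when DMSO replicate 1 was left out (-0.57 and -0.64) or 2 h replicate 2 (-0.58 and -0.61). Cct3, whose peak lies away from its start, was at 239.8 and 284 CPM in DMSO and 239.1 and 276 CPM at 2 h, and the groups overlapped. Its log2 changes were -0.02 ± 0.14, 0.04 ± 0.14 and -0.20 ± 0.14, none called. Among the genes with no peak, Cct5 had log2 changes of -0.31, -0.34 and -0.31, each ± 0.17, Cct6a of -0.21, -0.18 and -0.04, each ± 0.15, Cct2 of -0.02, -0.08 and -0.19, each ± 0.13, and Cct4 of -0.06, -0.01 and 0.17, each ± 0.13, and none was called.

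In all, 1 of the 8 CCT genes fell in new transcription after 2 h, and 2 of the 8 did so after both 6 h and 24 h, with none higher. Over all 17870 genes tested, 2.43% were called lower after 2 h (0.168% higher), 2.83% after 6 h (0.397% higher) and 4.09% after 24 h (2.02% higher). The median log2 change of the 8 genes was -0.26 at each of the 3 times, against 0.01 over all genes tested. Both dTAG libraries were below both controls for 3 of the 8 genes at 2 h (20.6% of all genes tested), 5 at 6 h (23.7%) and 5 at 24 h (24.1%). Within the same-numbered pairs, a comparison added after seeing the data, both dTAG libraries were below their own control for 7 of the 8 genes after 2 h (all but Cct2), against 29.9% of all genes tested. This was so for 6 after 6 h (all but Cct3 and Cct4), against 31.5%, and for 7 after 24 h (all but Cct4), against 36.0%. With the replicate block, the calls over all genes went from 435 lower and 30 higher to 662 and 87 after 2 h, from 506 and 71 to 956 and 359 after 6 h, and from 730 and 361 to 1214 and 1009 after 24 h. These 3 comparisons share their DMSO libraries. Directly compared, 24 h differed from 2 h for none of the 8 genes (0 at an unadjusted p under 0.05, 0 in DESeq2 and 0 with the replicate block), with 0.0560% of all genes called lower and 0.0336% higher. These shares were 1.09 and 1.28% in DESeq2 and 2.18 and 3.20% with the block.

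The time course of mature transcripts then showed how far these changes reached the polyadenylated RNA. Tcp1 was the only CCT gene called at 24 and 48 h, Cct3 and Cct7 fell at 72 h, and by 72 h all 8 genes were below their controls in both libraries. Tcp1 was at 910 and 949 CPM in DMSO, 485 and 477 CPM at 24 h, 393 and 392 CPM at 48 h, and 404 and 392 CPM at 72 h. It thus stood at 52.2 and 51.3% of the mean control at 24 h and between 42.2 and 43.5% afterwards, and every dTAG library was far below both controls, while the 48 and 72 h libraries overlapped. The log2 change was -0.95 ± 0.04 at 24 h (adjusted p = 2.49e-09, edgeR), -1.24 ± 0.04 at 48 h (adjusted p = 4.26e-15) and -1.22 ± 0.04 at 72 h (adjusted p = 4.37e-15).

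Cct7 was at 819 and 848 CPM in DMSO, 602 and 568 CPM at 24 h, 536 and 515 CPM at 48 h, and 455 and 463 CPM at 72 h, with no overlap with control at any time. Its log2 changes were -0.51 ± 0.04 at 24 h and -0.67 ± 0.04 at 48 h, not called against a fold of 1.5, and -0.86 ± 0.04 at 72 h (adjusted p = 1.93e-07, edgeR). Cct3, the gamma subunit, was at 783 and 802 CPM in DMSO, 634 and 625 CPM at 24 h, 497 and 506 CPM at 48 h, and 472 and 467 CPM at 72 h. Its log2 change of -0.75 ± 0.04 at 72 h was called (adjusted p = 7.38e-05), and those of -0.33 ± 0.04 at 24 h and -0.66 ± 0.04 at 48 h were not. The mature transcript of Cct3 was at 59.3% of control at 72 h, and its new transcription was at 87.2% of control at 24 h. Cct8 was at 942 and 963 CPM in DMSO and 652 and 624 CPM at 72 h, and its log2 changes of -0.41, -0.50 and -0.58, each ± 0.04, were not called.

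The genes with no peak had values near control at 24 h and below it at 72 h. At 24 h, Cct2, Cct4, Cct5 and Cct6a had log2 changes of -0.11, 0.02, -0.10 and -0.04, and at 72 h of -0.60, -0.30, -0.48 and -0.44, each ± 0.04, none of which was called against a fold of 1.5. Cct4, the delta subunit, was at 813 and 818 CPM in DMSO, 833 and 823 CPM at 24 h, 797 and 807 CPM at 48 h, and 657 and 668 CPM at 72 h. Its 24 h libraries were both slightly above the controls, and only its 48 and 72 h libraries were below them. Cct2, the beta subunit, was at 1078 and 1079 CPM in DMSO, 1008 and 994 CPM at 24 h, 821 and 815 CPM at 48 h, and 712 and 711 CPM at 72 h, and so was lower than control in every dTAG library.

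**Figure D2:**
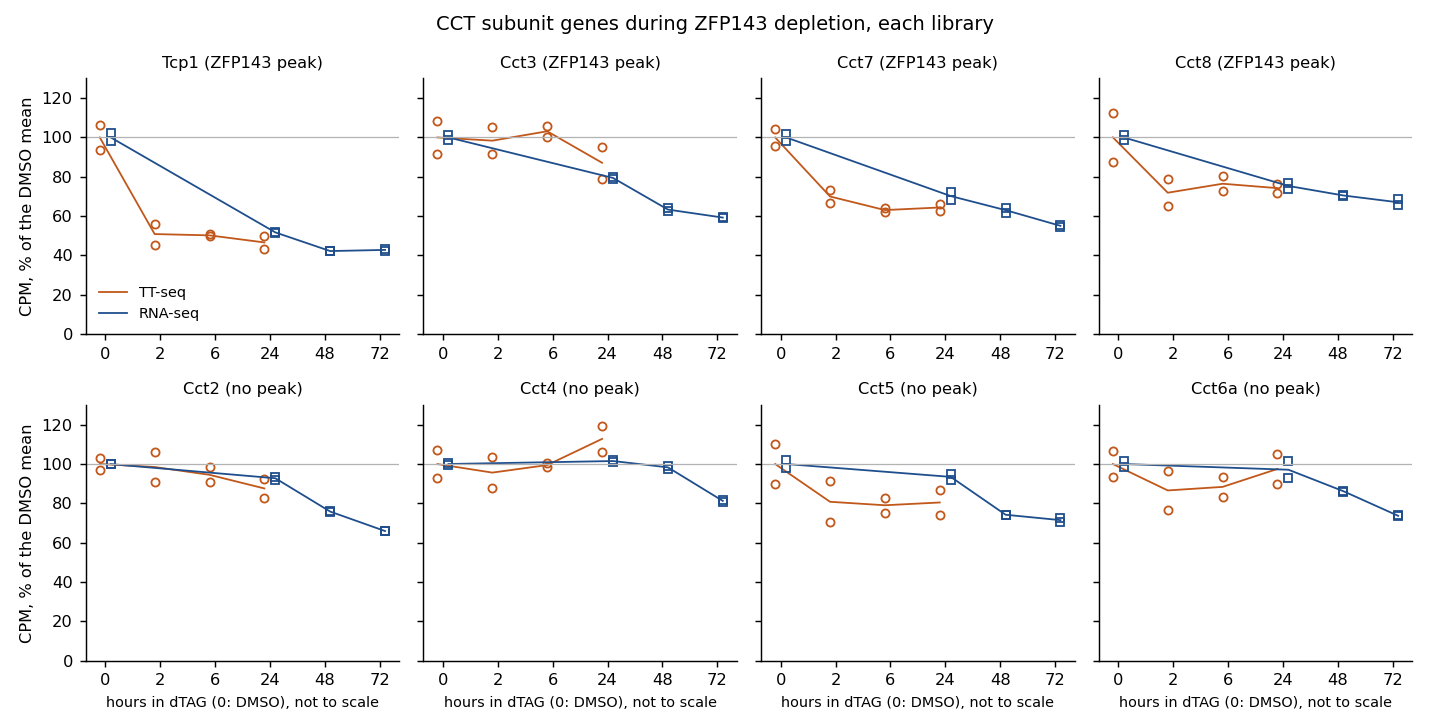
Level of each CCT gene in each library of the TT-seq and RNA-seq time courses, with hours in dTAG on the x axis (not to scale, 0 being DMSO) and the level as percent of the mean of the 2 DMSO libraries on the y axis. Points are libraries and lines join the group means, and Tcp1 is the lowest gene at every dTAG time in both assays.

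By count, 1 of the 8 genes fell at 24 h (3.41% of 13925 genes tested were called lower and 2.32% higher), 1 at 48 h (7.71% lower and 10.5% higher) and 3 at 72 h (12.0% lower and 13.7% higher), and none rose. The median log2 change of the 8 genes was -0.22 at 24 h, -0.47 at 48 h and -0.59 at 72 h, against 0.02, 0.01 and 0.02 over all genes tested. Both dTAG libraries were below both controls for 6 of 8 genes at 24 h, 8 at 48 h and 8 at 72 h, against 34.5%, 40.2% and 41.9% of all genes tested. These comparisons too share their DMSO libraries. Scaling by library size alone in place of TMM moved the median log2 change of all genes to 0.15, 0.21 and 0.23 at the 3 times, and the calls over all genes from 475 lower and 323 higher to 385 and 495 at 24 h, from 1073 and 1456 to 698 and 2047 at 48 h, and from 1677 and 1912 to 1109 and 2736 at 72 h. Relative to those medians the 8 genes had changes between -1.24 (Tcp1) and -0.31 (Cct4) at 72 h. Not relative to them, Cct3 (-0.54, adjusted p = 1.0, edgeR) and Cct7 (-0.64, adjusted p = 0.102) were no longer called at 72 h, and Cct2, Cct5 and Cct6a had changes of 0.03, 0.03 and 0.09 at 24 h, and Cct4 had one of 0.18 at 48 h. Under that scaling, a count added after seeing the data, both dTAG libraries were below both controls for 4 of the 8 genes at 24 h (21.5% of all genes), 6 at 48 h (27.1%) and 8 at 72 h (30.1%). Directly compared, all 8 genes had lower values at 72 h than at 24 h, by log2 changes between -0.49 (Cct2) and -0.17 (Cct8). None of these was called against a fold of 1.5 in edgeR (8 of 8 had an unadjusted p under 0.05 against no change, DESeq2 called 0, and 6.60% of all genes were called lower and 7.53% higher).

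**Figure D3:**
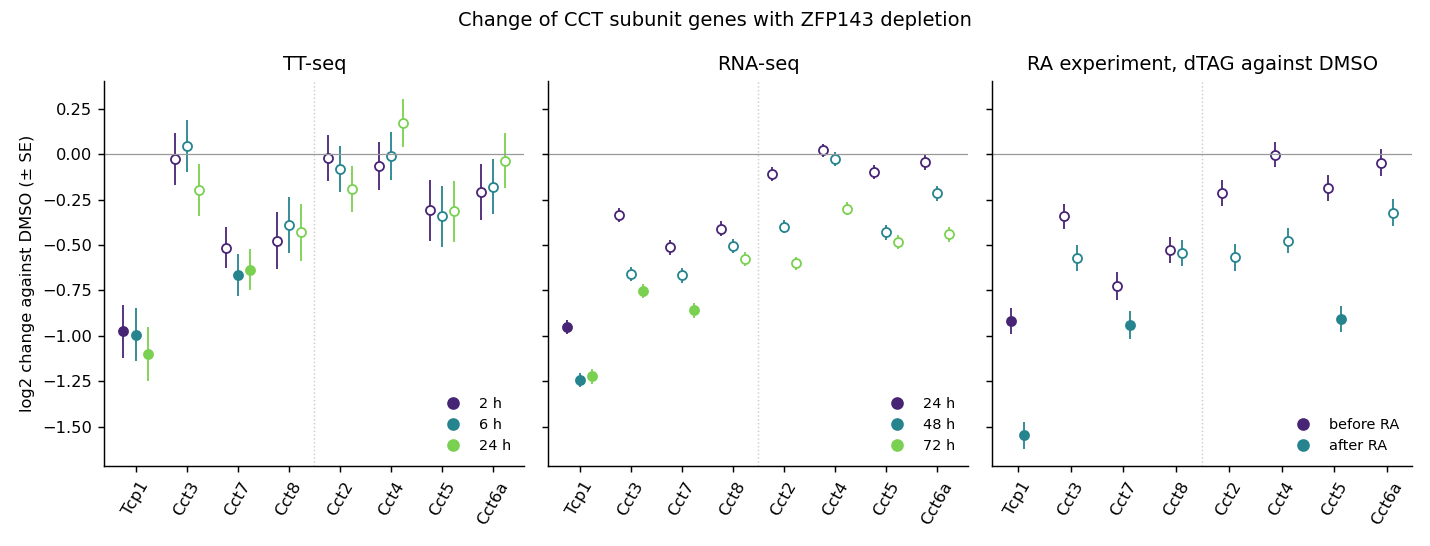
Log2 change of each CCT gene against DMSO in the TT-seq (2, 6 and 24 h) and RNA-seq (24, 48 and 72 h) time courses and before and after RA, with bars of ± 1 SE from edgeR and filled circles for called values. Genes with a ZFP143 peak stand left of the dotted line; in RNA-seq the 4 genes without a peak lie near 0 at 24 h and between -0.60 and -0.30 at 72 h.

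The peak and no-peak genes can be set against each other within a library, where no scaling between libraries enters. The summed CPM of the 4 genes with a peak divided by that of the 4 without was 1.00 and 1.01 in RNA-seq DMSO. In dTAG it was 0.721 and 0.722 (24 h), 0.725 and 0.718 (48 h), and 0.785 and 0.770 (72 h). In TT-seq it was 0.941 and 0.967 in DMSO, and in dTAG it was 0.823 and 0.787 (2 h), 0.819 and 0.798 (6 h), and 0.698 and 0.726 (24 h). Every dTAG library had a lower ratio than every control of its table, and within RNA-seq the ratio at 72 h was higher than at 24 and 48 h. With 2 libraries against 2, an exact two-sided permutation test cannot go below p = 0.333, and no test was made. The direct difference between 72 and 24 h had a median log2 of -0.31 for the 4 genes with a peak and -0.39 for the 4 without, whereas the change from DMSO to 24 h had medians of -0.46 and -0.07. The sum over all 8 genes went from 6907 and 7076 CPM in DMSO to 4511 and 4473 CPM at 72 h.

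**Figure D4:**
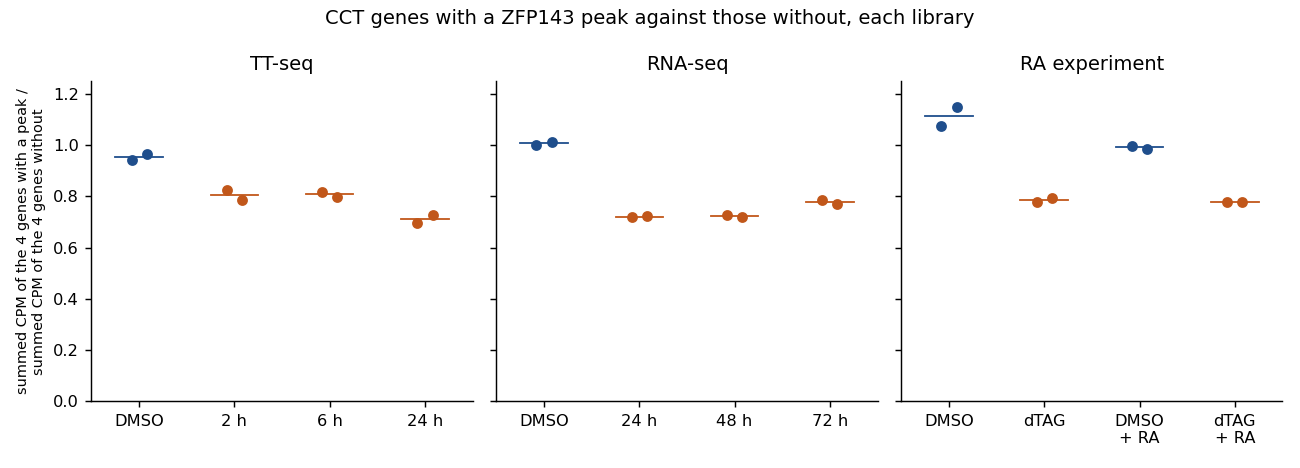
Ratio of the summed CPM of Tcp1, Cct3, Cct7 and Cct8 to that of Cct2, Cct4, Cct5 and Cct6a in each of the 24 libraries, by table and group. Each point is a library and each short line a group mean; the dTAG libraries lie between 0.698 and 0.823 and the DMSO libraries between 0.941 and 1.15.

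Other genes with a ZFP143 peak give the setting for these values. Of 2284 such genes tested in TT-seq, 17.0% were called lower at 2 h with a median log2 change of -0.28, against 0.295% and 0.03 for the 15578 genes tested that had no peak. In RNA-seq, 18.0% of 2065 genes with a peak were called lower at 24 h and 25.6% at 72 h, against 0.869% and 9.67% of 11852 genes without. Of the 4 CCT genes with a peak, 1 was called lower in TT-seq at 2 h, 1 in RNA-seq at 24 h, and 3 in RNA-seq at 72 h. None of the 4 without was called in those comparisons.

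Levels of different subunits were compared per kb of merged exons. In RNA-seq DMSO, Cct2 made up 22.9 and 22.4% of the summed level of the 8 subunits per kb, Cct8 16.6 and 16.6%, Cct5 14.9 and 15.1%, Cct6a 12.1 and 12.2%, Cct4 10.5 and 10.4%, Tcp1 9.83 and 10.0%, Cct3 6.68 and 6.69%, and Cct7 6.56 and 6.65%. The smallest step in this order was that from Cct3 to Cct7, where the difference between the means was little more than the SD of 0.0622 percentage points between the Cct7 libraries. The order rests on the gene length used. With the length of RefSeq mRNAs, the 8 shares lay between 10.5% (Cct7) and 16.1% (Cct2). The share of Tcp1 went from 9.83 and 10.0% in DMSO to 5.99 and 6.09% at 24 h, and from 11.4 and 11.6% to 7.06 and 7.17% with RefSeq mRNA lengths. In TT-seq, per kb of gene body, the share of Tcp1 was 14.1 and 13.9% in DMSO and 8.51 and 8.84% at 2 h. The gene body of Cct6a spans 59374 bp in the annotation, and its TT-seq level per kb (3.04 CPM per kb in DMSO, the lowest of the 8) is divided by that span.

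Each of the 4 peaks also reached the start of a gene on the other strand, and these neighbours did not all behave like the CCT gene. Mrpl18, which encodes a mitochondrial ribosomal protein and shares the Tcp1 peak, fell in RNA-seq at 48 h (log2 change -1.06 ± 0.07, adjusted p = 3.18e-07, edgeR) and 72 h (-0.92 ± 0.07, adjusted p = 2.05e-05). Its libraries were at 83.6 and 94.3 CPM in DMSO and 48.0 and 46.3 CPM at 72 h. In RNA-seq at 24 h its log2 change of -0.65 ± 0.07 was not called. In TT-seq its log2 changes of -0.31 ± 0.23, -0.36 ± 0.23 and -0.30 ± 0.23 were not called. Pradc1, at the Cct7 peak, was not called in either time course. Its TT-seq log2 changes of -0.66, -0.58 and -0.57, each ± 0.24, were near those of Cct7 but had larger SEs. In RNA-seq at 72 h it had a log2 change of -0.45 ± 0.13. Tsacc, a co-chaperone of a testis kinase at the Cct3 peak, was at 22.8 and 31.2 CPM in TT-seq DMSO and 40.4 and 39.0 CPM at 2 h (log2 change 0.55 ± 0.16, adjusted p = 0.19, not called). Before RA, it was at 1.36 and 1.20 CPM in DMSO and rose to 3.74 and 3.50 CPM in dTAG (log2 change 1.49 ± 0.26, adjusted p = 0.00444, edgeR). The long noncoding RNA B130034C11Rik, at the Cct8 peak, had 39 to 61 counts per TT-seq library and too few RNA-seq counts to be tested. Its TT-seq log2 changes between -0.47 and -0.39 were near those of Cct8 and were not called. Mrpl18 overlaps Tcp1 by 645 bp on the other strand, Acat3 overlaps Tcp1 by 1255 bp, and Pradc1 overlaps Cct7 by 457 bp. TT-seq reads were counted by strand, but the strand setting of the RNA-seq counts was not given in the sources used here, so that reads from these overlaps cannot be assigned with certainty. The snoRNA gene Snora20 lies within Tcp1, and Snora15 within Cct6a.

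The RA experiment asked whether the depletion mattered as the cells left the pluripotent state. Before RA, dTAG at 24 h gave the same order as in the time course, with Tcp1 at 1015 and 1121 CPM in DMSO and 570 and 560 CPM in dTAG. Its log2 change was -0.92 ± 0.07 (adjusted p = 3.17e-04, edgeR), a call that was lost without dTAG replicate 2 (-0.90, adjusted p = 0.012). It was the only one of the 8 genes called (3.66% of 15915 genes tested were called lower and 2.74% higher). Cct7 had a log2 change of -0.72 ± 0.08 and Cct8 of -0.53 ± 0.07, and the other 5 lay between -0.34 (Cct3) and -0.00 (Cct4). Both dTAG libraries were below both controls for 6 of the 8 genes, against 31.2% of all genes tested.

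After RA, Tcp1, Cct5 and Cct7 were lower in dTAG than in DMSO and all 8 genes were below both controls in both libraries. Tcp1 was at 727 and 785 CPM in DMSO with RA and 259 and 256 CPM in dTAG with RA, a log2 change of -1.55 ± 0.07 (adjusted p = 9.24e-11, edgeR), or 34.2% of control. Cct5, which has no ZFP143 peak, was at 662 and 645 CPM in DMSO with RA and 364 and 332 CPM in dTAG with RA. Its log2 change was -0.91 ± 0.07 (adjusted p = 1.85e-04), and it was lost as a call without dTAG with RA replicate 2 (-0.82, adjusted p = 0.0105). Cct7 was at 765 and 725 CPM against 412 and 364 CPM, a log2 change of -0.94 ± 0.08 (adjusted p = 1.48e-04), also lost without that library (-0.83, adjusted p = 0.0106). The other 5 had log2 changes between -0.57 (Cct3 and Cct2) and -0.32 (Cct6a), not called. The count of 3 of 8 stands beside 7.36% of all genes tested called lower and 9.10% called higher, and the 8 of 8 below both controls beside 39.5%. The median log2 change of the 8 was -0.57, against 0.00 over all genes tested. Scaling by library size alone moved the median of all genes to 0.20 before RA and 0.21 after RA, and the calls over all genes from 583 lower and 436 higher to 481 and 626 before RA and from 1171 and 1449 to 762 and 2089 after RA. Under that scaling Tcp1 before RA (-0.78, adjusted p = 0.0122, edgeR) and Cct5 (-0.70, adjusted p = 0.0575) and Cct7 (-0.73, adjusted p = 0.0307) after RA were no longer called, and relative to the medians their changes were -0.98, -0.91 and -0.94. Cct4 and Cct6a then had changes of 0.13 and 0.09 before RA. Both dTAG libraries were then below both controls for 5 of the 8 genes before RA (20.3% of all genes) and for 8 after RA (27.4%). The marker lists moved with this comparison. The ESC markers summed to 4951 and 5234 CPM in DMSO and 4430 and 4420 CPM in dTAG before RA, and to 880 and 586 CPM in DMSO and 1260 and 1044 CPM in dTAG with RA. The primitive endoderm markers summed to 21.4 and 19.6 CPM in DMSO with RA and to 43.5 and 42.8 CPM in dTAG with RA. The summed neural markers went from 85.1 and 94.8 to 43.3 and 42.1 CPM and the fibroblast-like ones from 152 and 194 to 63.8 and 60.3 CPM between the same groups. Within the fibroblast-like list the lowest gene, Thy1, went the other way, from a mean of 1.42 to 7.445 CPM. None of these markers was at 0 counts, and their part in the CCT changes after RA and in the interaction was not tested.

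With RA and the change of medium, 3 of the 8 genes fell in DMSO and 7 in dTAG. In DMSO, Cct3 (log2 change -1.20 ± 0.07), Cct8 (-1.12 ± 0.07) and Cct6a (-0.99 ± 0.08) fell, and the other 5 had changes between -0.56 (Cct5) and -0.36 (Cct4) that were not called. In dTAG, the 7 genes fell by log2 changes from -1.43 ± 0.07 (Cct3) to -0.84 ± 0.07 (Cct4), and Cct7 had a change of -0.59 ± 0.08 (adjusted p = 0.372, edgeR). The call of Cct4 was lost without dTAG replicate 1 (-0.80, adjusted p = 0.011) or dTAG with RA replicate 2 (-0.77, adjusted p = 0.0142). Of all genes tested, 18.1% were called lower in DMSO and 18.5% in dTAG. Scaling by library size alone moved the median of all genes to 0.35 in DMSO and 0.39 in dTAG, and the calls over all genes from 2877 lower and 4113 higher to 1710 and 5164 in DMSO and from 2939 and 3980 to 1518 and 5447 in dTAG. Under it Cct6a in DMSO and Tcp1, Cct2 and Cct4 in dTAG were no longer called, and relative to the medians their changes were -1.02, -1.13, -0.88 and -0.84. The sum over the 8 genes went from 7769 and 8238 CPM in DMSO to 4937 and 5015 CPM with RA, and from 6385 and 6125 CPM in dTAG to 3096 and 2883 CPM with RA.

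Whether the depletion effect differed before and after RA was tested with an interaction term, called by the TT-seq rule. It was called for Tcp1 (-0.63 ± 0.10 on the log2 scale, adjusted p = 4.36e-05, edgeR) and Cct5 (-0.72 ± 0.10, adjusted p = 8.1e-06), both with a greater decrease in dTAG after RA. The terms of the other 6 genes lay between -0.47 (Cct4) and -0.02 (Cct8), the latter at 0.06 with scaling by library size alone. Of these, Cct2, Cct4 and Cct6a passed the adjusted p (0.00719, 5.77e-04 and 0.041) but not the size. Over all genes tested, 18.0% had an interaction called lower and 13.7% higher, so that 2 of 8 lay near the share of all genes. The median over all genes was -0.07, against -0.32 for the 8. With library size alone, the calls over all genes went from 2863 lower and 2186 higher to 2404 and 2538, and Tcp1 (-0.56) and Cct5 (-0.65) were still called. The depleted libraries after RA had also been in dTAG for longer than those before, and this cannot be told apart from RA in the interaction. The ratio of the genes with a peak to those without was 1.08 and 1.15 in DMSO, 0.780 and 0.795 in dTAG, 0.998 and 0.984 in DMSO with RA, and 0.779 and 0.779 in dTAG with RA.

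**Figure D5:**
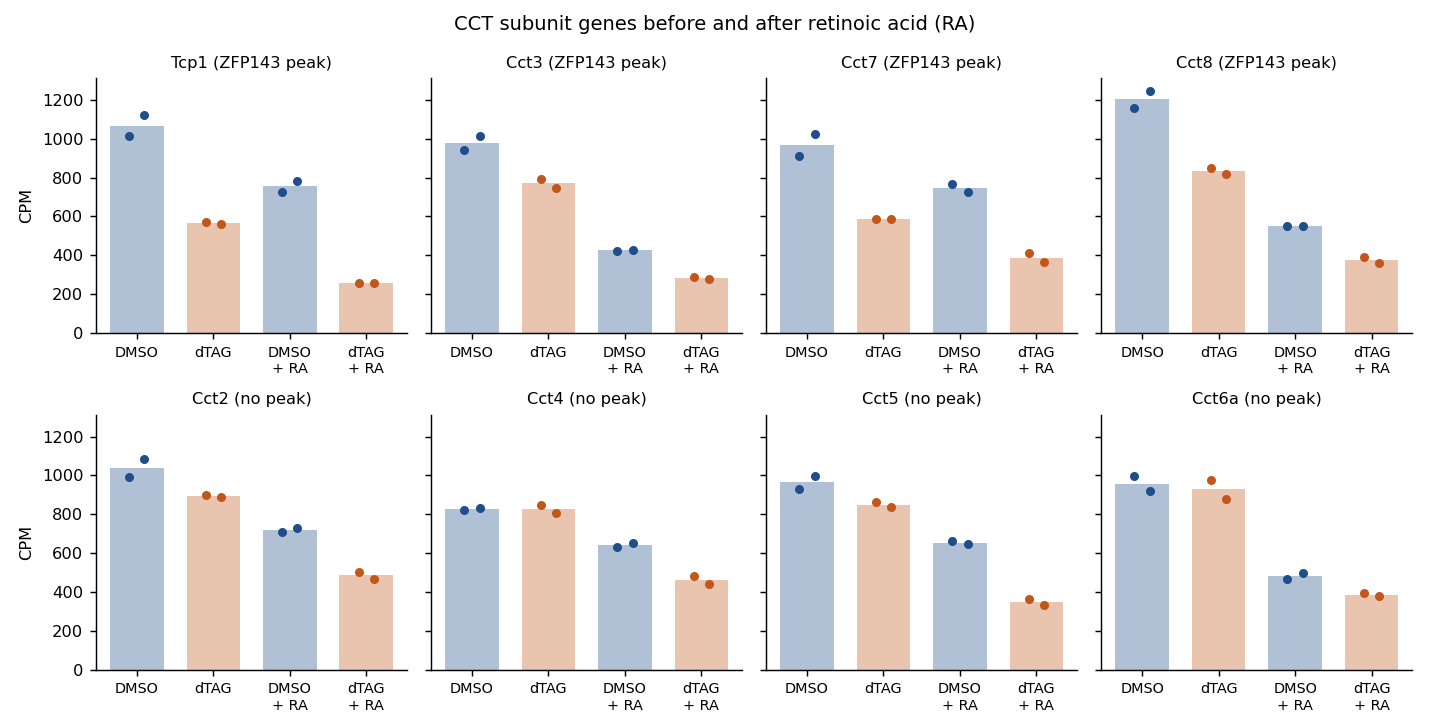
CPM of each CCT gene in each library of the RA experiment, in DMSO and dTAG before RA and with RA. Points are libraries and bars are group means; the dTAG libraries with RA are the lowest group for all 8 genes, and Tcp1 is lowest at 256 and 259 CPM.

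Genes of the same pathway were taken from fixed lists. Among 4 CCT-like proteins, Cct6b, a testis paralog of Cct6a, had 0 to 17 counts per library in the RNA-seq time course, was not tested there, and was at 4.56 and 7.01 CPM in TT-seq DMSO and 9.69 and 10.6 CPM at 2 h (log2 change 0.82 ± 0.30, adjusted p = 0.328, edgeR, not called). Mkks, a chaperonin-like protein of the primary cilium with a ZFP143 peak, rose at 48 h (0.95 ± 0.10) and 72 h (1.20 ± 0.09), from 18.1 and 18.6 CPM in DMSO to 41.1 and 43.0 CPM at 72 h. Of 6 prefoldin subunits, Pfdn6 alone fell in either RNA-seq table under depletion, by -0.88 ± 0.07 at 72 h (12.0% of all genes tested were lower) and -0.99 ± 0.08 before RA (3.66%), and it alone had a ZFP143 peak. After RA none of the 6 was called, the lowest log2 change being -0.59. Their interaction was called lower for Pfdn4 (-0.84 ± 0.14) and Pfdn5 (-0.71 ± 0.15) and higher for Pfdn6 (0.56 ± 0.11). Of all genes tested, 18.0% had an interaction called lower and 13.7% higher. None of 3 phosducin-like CCT cofactors and none of 5 tubulin folding cofactors was called in a depletion comparison. Of 9 members of the prefoldin-like and R2TP complexes, which assemble RNA polymerases and other large complexes, Rpap3 fell in TT-seq at 2 h (-0.83 ± 0.14), 6 h (-0.77 ± 0.14) and 24 h (-0.62 ± 0.14). At 72 h in RNA-seq, 3 of these 9 fell (12.0% of all genes tested were lower and 13.7% higher), among them Uri1 from 131 and 138 CPM to 36.6 and 38.0 CPM (-1.85 ± 0.06), and Pdrg1 rose (1.37 ± 0.08).

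Among genes for known CCT substrates, 15 actin and tubulin genes were measured, of which Tubb5 alone had a ZFP143 peak. Tubb5 fell in TT-seq at 6 h (-0.64 ± 0.14) and 24 h (-0.84 ± 0.14). In RNA-seq, 1 of the 15 fell at 24 h (Tubb3, -1.20 ± 0.06), beside 3.41% of all genes tested. Tubb3 also made up most of the neural marker sum given above, so that these falls are not separate results. At 48 h, 5 of the 15 fell, beside 7.71% of all genes, and 1 rose (Tube1, 0.94 ± 0.09). At 72 h, 6 fell, beside 12.0% of all genes, with a median log2 change of -0.40 against 0.02 over all genes. Before RA, 1 of 15 was lower in dTAG, beside 3.66% of all genes, with a median of -0.25. After RA, 8 of 15 were lower in dTAG than in DMSO, beside 7.36% of all genes, led by Tubb2b (-2.19 ± 0.09) and Tuba1a (-1.98 ± 0.09), with a median of -0.92. The interaction was called lower for 11 of the 15 and higher for 2, beside 18.0% and 13.7% of all genes. Tubulin genes are close paralogs, and reads shared between them make their single values uncertain. Of 11 WD repeat genes, 1 was called lower at each TT-seq time, and in RNA-seq 0 were after 24 h, 2 after 48 h and 1 after 72 h, with none higher, beside 2.43 to 4.09% of all genes lower in TT-seq and 7.71% and 12.0% at 48 and 72 h. The median log2 change of these 11 genes was -0.10 in TT-seq at 2 h and 0.04 in RNA-seq at 72 h, against 0.01 and 0.02 over all genes. Fzr1, an activator of APC/C with a peak, fell in TT-seq at 2, 6 and 24 h (-1.05, -1.18 and -1.13, each ± 0.14) and in RNA-seq at 48 h (-0.79 ± 0.05). Strn3, a striatin with a peak, fell at 48 h (-0.86 ± 0.07) and 72 h (-0.80 ± 0.07).

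The other large chaperone system of the cytosol, HSP70 and HSP90 with their partners, was represented by 20 genes. Hsph1, a nucleotide exchange factor of HSP70, fell at 2 h in TT-seq from 101 and 125 CPM to 38.3 and 46.4 CPM (-1.41 ± 0.16) and at 24 h in RNA-seq from 146 and 156 CPM to 32.6 and 31.4 CPM (-2.24 ± 0.06). Its direct difference between 72 and 24 h was 0.97 ± 0.07 (adjusted p = 1.51e-05, edgeR), higher at 72 h. At 72 h, 5 of 19 tested genes of this list fell (12.0% of all genes tested were lower and 13.7% higher), among them the HSP90 partner Fkbp4 (-1.45 ± 0.04), and 1 rose (Hspa4l, 1.48 ± 0.15). Hspd1 and Hspe1, which form the chaperonin of mitochondria and both have a ZFP143 peak, were not called in any depletion comparison.

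The genes most like each called CCT gene over the 6 depletion changes were found by the root mean square (RMS) difference of their log2 changes, among 8716 protein-coding genes with a mean count of at least 100. These were Nedd8 (RMS 0.0854), Cnih1 (0.0873) and Ipo7 (0.0986) for Tcp1, all with a ZFP143 peak. For Cct7 they were Atp5o (0.0596) and Tomm70a (0.0959), both with a peak, and Cox6b2 (0.0975), with none. For Cct3 they were Gdi2 (0.0437) and E2f3 (0.0447), with no peak, and Kif13b (0.0525), with one. The 6 changes share their controls within each assay. Genes with a peak were called lower more often than others (17.0% against 0.295% in TT-seq at 2 h). A peak at genes matched on such falls is therefore no separate result.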

How the data were processed

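The authors aligned TT-seq and RNA-seq reads with STAR to mm10 with a GENCODE annotation, and the deposited gene tables hold counts, made with HTSeq over whole genes by strand for TT-seq and with STAR for RNA-seq. The ZFP143 and CTCF peaks were deposited with a fold enrichment (ratio to input) and a −log10 q-value from MACS2, and with coordinates and further columns of other kinds that served here only to place peaks and summits. The CTCF list joins the peaks that the authors called in DMSO and in dTAG cells. Other deposited files were not used here.

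For each of the 3 tables, a gene was kept if at least 4 of its 8 libraries exceeded 10 counts, and the genes kept were fitted with edgeR 4.0.16 in R 4.3.3 (TMM scaling, group as the only term, all 4 groups sharing 1 estimate of the spread), with Benjamini-Hochberg adjustment over all genes tested. TT-seq and the interaction used the quasi-likelihood test, and RNA-seq used glmTreat against a fold of 1.5. The common coefficient of biological variation was 17.2% (TT-seq), 3.65% (RNA-seq over time) and 5.92% (RA). The steps were tested on simulated data. Libraries are separate samples by their labels, and the paper reports 2 biological replicates for TT-seq and for RNA-seq. Where these were not separate cultures, the p-values measure a spread that may be technical. Of the 55401 gene identifiers, 55141 matched the GENCODE annotation of the same build used here, which gave starts, exons and lengths. The same-numbered TT-seq libraries deviated together (correlations of deviations from group means between 0.19 and 0.63 for every pair of groups), and so the replicate number was also fitted as a block. The members and the gene lists were chosen with earlier results of these data known. The text names all 8 members, Cct6b, Zfp143, genes whose start shares a member's peak, up to 2 called genes per direction, those that changed most, for each list and comparison, and the 3 genes most like each member called in a depletion time course. Alternatives were DESeq2 1.42.0, its size factors in edgeR, library size alone, no filter, the block, the other call rule and each library left out.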

Additional observations from a re-analysis of the deposited data

Results flagged for a closer look

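Among the 8 CCT genes and Cct6b, the paralog of Cct6a, the interaction of ZFP143 depletion with retinoic acid was called for 3 genes in edgeR. A call needed an adjusted p under 0.05 and a log2 size above 0.5. Cct2, Cct4 and Cct6a also passed the adjusted p but not the size, with Cct4 at -0.47 (adjusted p = 5.77e-04, edgeR). The interaction was -0.63 on the log2 scale for Tcp1 (adjusted p = 4.36e-05), whose depletion change was -0.92 before and -1.55 after RA. It was -0.72 for Cct5 (adjusted p = 8.1e-06), whose depletion change was -0.18 before and -0.91 after RA. The third gene called was Cct6b, at -1.18 (adjusted p = 0.037), which had only 14 to 54 counts per library. Cct6b was at 0.734 and 0.974 CPM in DMSO and 1.09 and 1.39 CPM in dTAG before RA, and at 2.38 and 2.79 CPM in DMSO and 1.99 and 1.35 CPM in dTAG with RA. Of all genes tested, 18.0% had an interaction called lower and 13.7% higher, so that 2 of the 8 CCT genes called is near the share of all genes, and with library size alone the calls over all genes were 2404 lower and 2538 higher instead of 2863 and 2186. The summed ESC, primitive endoderm, neural and fibroblast-like markers differed between the arms as well, their part was not tested, and the time in dTAG differed between the arms. The interaction was called for many other genes of the fixed lists, in both directions. Of the 4 CCT-like proteins, Bbs12 (-0.80, adjusted p = 0.0202, edgeR) was called lower and Mkks (0.85, adjusted p = 0.00346) higher beside Cct6b, and of the 15 actin and tubulin genes 11 were called lower and 2 higher.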

How the results depend on the processing

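The 26 called values of CCT genes kept their direction in all 261 alternatives run for them and remained called in 236. The 78 values not called became called in 20 of 771 alternatives and changed sign in 36, in 8 of which the reported or the alternative value exceeded the reported SE. With DESeq2, with no filter on low counts and with the replicate block, 2 CCT genes were called in TT-seq at 2 h instead of 1, beside 2.73, 2.13 and 3.70% of all genes called lower instead of 2.43%. With no filter, 2 were called in RNA-seq at 48 h instead of 1, beside 4.49% of all genes instead of 7.71%. The interaction was then called for 3 CCT genes instead of 2, with Cct4 (-0.53) added, beside 10.5% of all genes lower instead of 18.0%. With the TT-seq call rule, the counts were 2 at 24 h (8.52% of all genes lower), 4 at 48 h (16.9%), 5 at 72 h (22.0%), 3 before RA (8.43%), 6 after RA (18.6%), 5 for RA in DMSO (28.3%) and 8 for RA in dTAG (29.7%). With library size alone, they were 1 at 72 h (7.96%), 0 before RA (3.02%), 1 after RA (4.79%) and 4 for RA in dTAG (9.54%), and Cct2 (0.025), Cct5 (0.035) and Cct6a (0.09) in RNA-seq at 24 h, Cct4 at 48 h (0.176), and Cct4 (0.134) and Cct6a (0.0882) before RA changed sign. The cause was not tested.

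Leaving out 1 library gave 0 to 1 called CCT genes in TT-seq at 2 h, 0 to 2 at 6 h, 1 to 2 at 24 h, 0 to 1 before RA, 1 to 3 after RA, 2 to 3 for the interaction and 6 to 7 for RA in dTAG, and a group left with 1 library was assumed to vary like the others. Cct6a at 24 h in RNA-seq ranged from -0.107 to 0.0186 and changed sign without 24 h replicate 2, and the difference of Cct5 in TT-seq between 24 and 2 h ranged from -0.180 to 0.190 and changed sign without 2 h replicate 2 or 24 h replicate 1.

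With the replicate block in TT-seq, more genes were called in both directions, and the share of calls that were lower went from 93.5 to 88.4% at 2 h, 87.7 to 72.7% at 6 h and 66.9 to 54.6% at 24 h. In both RNA-seq tables the same-numbered libraries did not deviate together in every pair (correlations from -0.0986 to 0.125), the numbers gave no pairing, and with the replicate block the count of lower calls over all genes at 24 h was 473 instead of 475. Apart from Cct7 at 2 h, the block changed no call of a CCT gene in any table.

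The share of a subunit in the level per kb moved with the length used. With the longest transcript, the RNA-seq DMSO shares were 20.02% for Cct2, 8.64% for Cct3, 11.9% for Cct4, 7.80% for Cct7 and 14.5% for Cct8. With the RefSeq mRNA length, chosen after seeing the data, they were 11.5% for Tcp1, 16.1% for Cct2, 12.5% for Cct3, 12.8% for Cct4, 12.6% for Cct5, 11.6% for Cct6a, 10.5% for Cct7 and 12.3% for Cct8. All 4 other rules for a promoter peak also gave 4 CCT genes. The SE of a CCT gene was 0.11 to 0.17 on the log2 scale in TT-seq and 0.04 in the RNA-seq time course, so that changes of a size seen in RNA-seq could go undetected in TT-seq.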
